A study of Arabidopsis thaliana with 8 samples.

Results

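Proteasome subunits and other genes annotated to the proteasome were followed in Arabidopsis thaliana embryos at 3 d and 6 d after pollination. The set holds every locus whose description on the array contained the word proteasome, 62 of 24648 loci. By role they are 12 genes of the 20S alpha ring, 11 of the 20S beta ring, 9 ATPases of the 19S base, 18 other subunits of the 19S base and lid, and 12 other annotated genes such as maturation factors. Each array compared embryos of M0191 (female) crossed with bdl (male), the bdl cross, with embryos of M0171 (female) crossed with Col-0 (male), the Col-0 cross. Ecotype was labelled Col-0 for both. There were 4 arrays per stage, called biological replicates by the submitters, and the bdl cross carried Cy5 for replicates 1 and 2 and Cy3 for the other two. Both parents differ between the crosses, so maternal line and bdl cannot be told apart, and the labels do not say what M0191 and M0171 carry or how many embryos were pooled. All values below are log2 ratios, bdl cross over Col-0 cross, so that 1 is a doubling, and a gene that rose or fell was higher or lower in the bdl cross.

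The 26S proteasome is the ATP-dependent protease that degrades proteins tagged with ubiquitin. Its 20S core is a barrel of alpha and beta rings with the proteolytic sites inside the beta rings. The 19S regulatory particle caps the barrel: a base ring of RPT ATPases unfolds substrates, and RPN subunits of base and lid bind ubiquitin, remove it and hold the particle together. Arabidopsis encodes most subunits by pairs of paralogs. Auxin acts by having Aux/IAA repressors ubiquitinated and degraded by this protease, and bdl is a dominant mutation of the Aux/IAA gene IAA12 that makes the repressor stable and disturbs formation of the embryonic root.

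IAA12 was 3.40 higher in the bdl cross at 3 d and 0.31 higher at 6 d, on every array of each stage. Array-to-array correlations over 14687 probes were 0.665 to 0.852 at 3 d, where the 3 pairs holding replicate 4 were the lowest, at 0.665 to 0.707, and 0.788 to 0.856 at 6 d. At 3 d, blank spots leaned to the bdl cross on replicates 1 and 4 and to the Col-0 cross on replicates 2 and 3, which is not the pairing that the dye labels give. The 6 d values came from a table of ratios whose direction was taken to follow that of its 3 d columns and was not checked against intensities. Of the embryo markers, 6 of 6 were above blank spots in the Col-0 cross on all 4 arrays at 3 d. Of the markers of other seed tissues, 3 of 6 for endosperm and 5 of 6 for seed coat were also above blank spots there on all 4 arrays, and none was below them on all 4, while FIS2 of the endosperm was above them on none in the bdl cross.

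At 3 d the proteasome genes differed little between the crosses. Of 60 members tested, 1 was higher and 1 lower in the bdl cross at an adjusted p under 0.05 (limma with a dye term, Benjamini-Hochberg over all genes), 3.33%, and 58 did not pass. Over all 19218 genes tested, 13.1% passed, 7.01% higher and 6.1% lower. The median ratio of members was −0.03 against −0.01 for all genes, and the median size regardless of sign was 0.138 against 0.286. The members were also brighter, with a median 3 d intensity of 6325 against 272 for all loci. Sizes were not compared at equal brightness. The count moved with the dye term and the filter on dim spots: with a term that follows the blank spots it was 8 (1 higher and 7 lower) where 25.3% of all genes passed, and among spots brighter than blank spots in each channel of each array it was 12 of 57 where 40.5% passed.

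The member that fell at 3 d was PBD1 (AT3G22630), a non-catalytic subunit of the beta ring. Its ratios were −0.49, −0.51, −0.50 and −0.46 on replicates 1 to 4, all below 0 and within a narrow band. The change was −0.49 ± 0.058 (SE, n = 4, adjusted p = 0.0381 by limma), a 1.40-fold lower level in the bdl cross, and it stayed past the threshold under each other dye term, filter and scaling with all 4 arrays. The member called higher was RPN12b (AT5G42040), a copy of the lid subunit RPN12, with ratios of −0.60, −0.20, 2.48 and 3.26. These lie on both sides of 0 and split by labelled dye, and the spot was above blank spots on 3 arrays in the bdl cross and 2 in the Col-0 cross. Its fitted ratio of 1.24 (adjusted p = 0.0472 by limma) rests on that dye term: without it the adjusted p was 0.329, and with the term from blank spots 0.39. RPN12b had no value at 6 d.

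Several other members lay on 1 side of 0 on every 3 d array without passing the test. PBA1, the caspase-like catalytic subunit of the beta ring, measured 0.30, 0.26, 0.18 and 0.27 (adjusted p = 0.0856 by limma). AT5G57950, whose description names the human 26S non-ATPase subunit 9, an assembly chaperone of the base in human cells, measured −0.43, −0.52, −0.28 and −0.62 (adjusted p = 0.0655). The base ATPase RPT1a measured −0.13, −0.40, −0.29 and −0.39 (adjusted p = 0.103). Of 60 members with all 4 values, 8 were above 0 and 19 below 0 on every array at 3 d. The share over all genes was not computed, so no lean of the members is read from these counts. PBA1 and AT5G57950 passed when the dye term followed the blank spots, at adjusted p = 0.0488 and 0.0397.

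**Figure D1:**
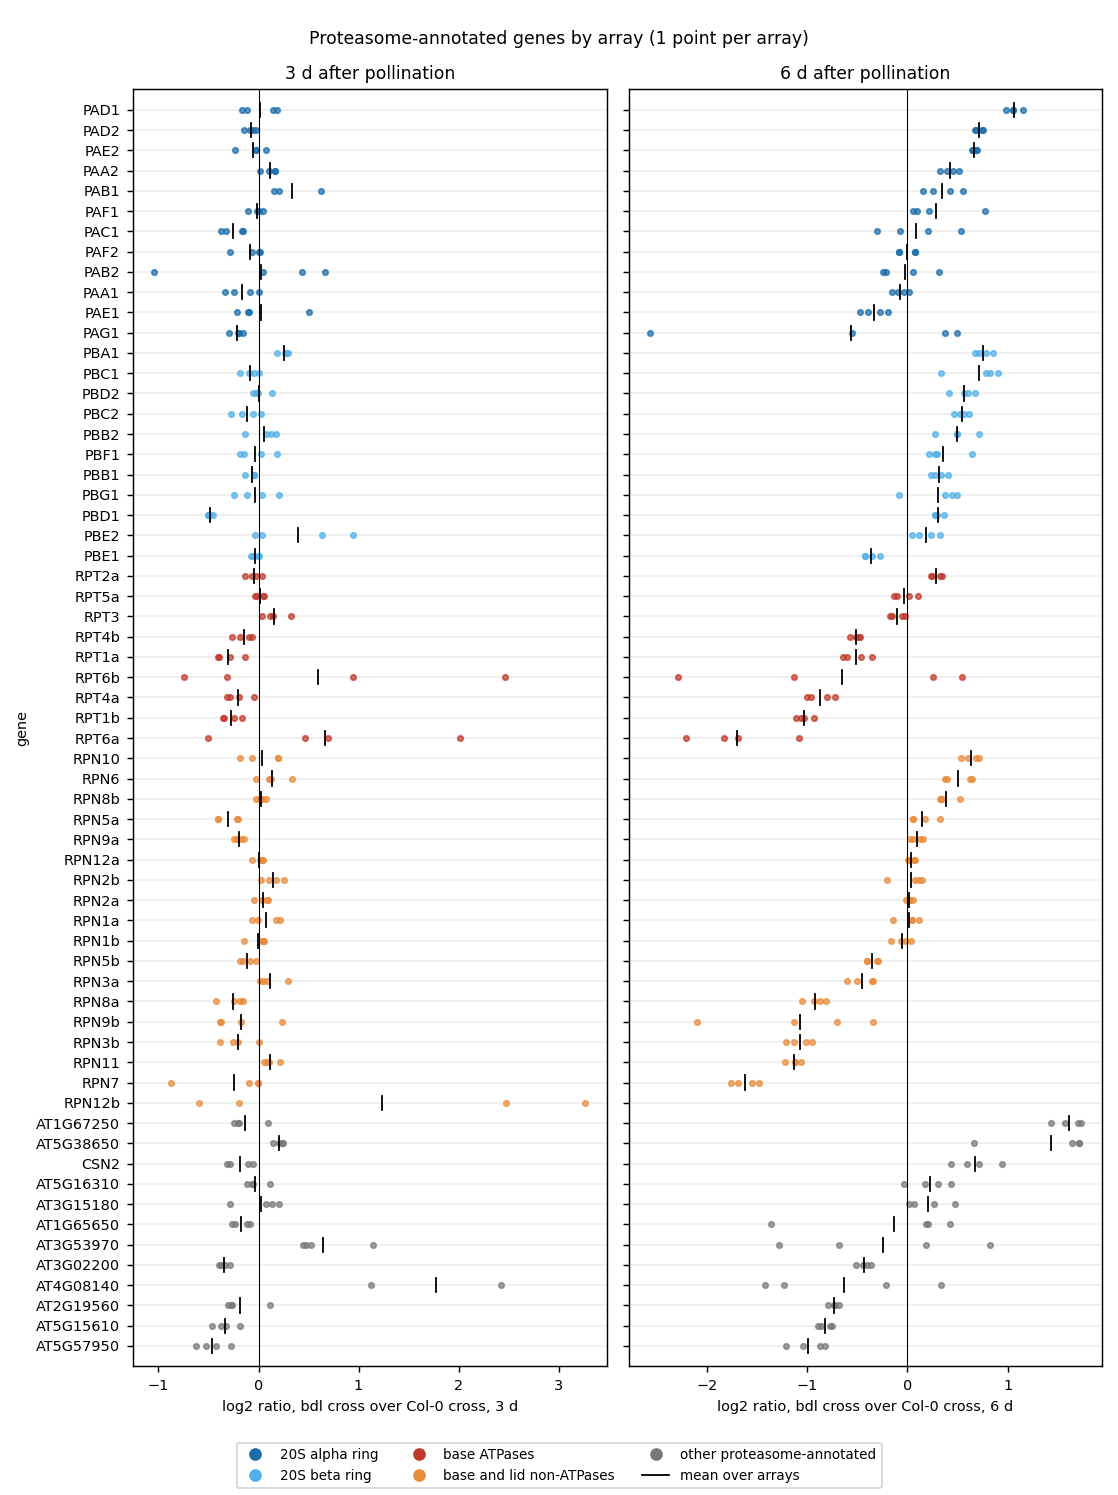
Log2 ratio, bdl cross over Col-0 cross, (horizontal axes, separate scales) for each proteasome-annotated gene (vertical axis), at 3 d on the left and 6 d on the right; points are single arrays, ticks their mean, colours the role. Most genes lie near 0 at 3 d, while at 6 d most 20S genes lie right of 0 and many 19S genes left of it, with PAD1 at 1.06 and RPN7 at −1.62.

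At 6 d the proteasome genes differed between the crosses in both directions, with most called 20S genes higher and most called 19S genes lower in the bdl cross. Of 61 members tested, 18 were higher and 18 lower in the bdl cross and 25 did not pass, 59.0%, beside 53.4% of all 19972 genes, of which 26.7% were higher and 26.7% lower. The share called is therefore near the background, and the median of members, 0.02, was near that of all genes, −0.02. The median size regardless of sign was 0.43 for members against 0.64 for all genes. Of the 23 genes of the 20S core, 11 rose, 2 fell and 10 did not pass, with a median of 0.31. Of 26 genes of the 19S particle, 4 rose, 12 fell and 10 did not pass, with a median of −0.23. This 19S set leaves out subunits whose description lacks the word. Of 5 such genes tested, 3 rose (DSS1(I) by 1.95, DSS1(V) by 1.77 and RPT5b by 0.79) and none fell. The lean of the 19S genes to lower is therefore weaker with them counted. A median that includes them was not computed. Per array, the median of the 20S genes was 0.33, 0.33, 0.31 and 0.39 and that of the 19S genes −0.08, −0.27, −0.23 and −0.16, so the 2 sets of medians did not overlap. These counts were chosen after values were seen, and no test of the particles against each other was made. Leaving out a replicate with the dye term kept, which leaves 1 residual degree of freedom, the 20S genes higher numbered 5 to 7 and the 19S genes lower 7 to 9. Without the dye term the same leave-outs gave 11 to 14 and 11 to 12.

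In the alpha ring, which gates entry to the barrel, 4 of 12 genes rose and 1 fell, beside 26.7% of all genes in each direction. PAD1 (AT3G51260) measured 1.15, 1.05, 0.98 and 1.05 at 6 d, all well above its 3 d values of −0.17, 0.14, 0.18 and −0.12. The 6 d change was 1.06 ± 0.063 (SE, n = 4, adjusted p = 0.00326 by limma), 2.08-fold. Its paralog PAD2 rose by 0.71, and PAE2 and PAA2 by 0.67 and 0.42. PAE1 fell by 0.33. PAG1, a single-copy alpha subunit, measured 0.38, −0.55, −2.57 and 0.50, so its mean of −0.56 hides arrays on both sides of 0 (adjusted p = 0.516). PAC1, also not past the test, measured 0.20, −0.07, −0.30 and 0.53. PAB1, with 0.16, 0.42, 0.56 and 0.26, lay above 0 on every array but did not pass (adjusted p = 0.0621), and passed with the arrays centred or without the dye term.

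In the beta ring, which holds the proteolytic sites, 7 of 11 genes rose and 1 fell, beside 26.7% of all genes in each direction. PBA1 (AT4G31300) measured 0.68, 0.71, 0.79 and 0.86, each above all of its 3 d ratios. Its 6 d change was 0.76 ± 0.061 (SE, n = 4, adjusted p = 0.00475 by limma). PBB1 and PBB2, the trypsin-like catalytic subunits, rose by 0.31 and 0.50 at their brightest probes and did not pass with their probes averaged (0.16 and −0.02, adjusted p = 0.133 and 0.928 by limma), which left 9 genes of the 20S core higher. Of the chymotrypsin-like pair, PBE1 fell, with −0.27, −0.35, −0.42 and −0.42 (−0.37 ± 0.06, adjusted p = 0.0196 by limma), while PBE2 measured 0.33, 0.11, 0.04 and 0.24 and did not pass. The non-catalytic subunits PBC1, PBC2, PBD1 and PBD2 rose by 0.71, 0.54, 0.30 and 0.57. PBF1 and PBG1, at 0.36 and 0.31, did not pass. The catalytic subunits thus lay on both sides of 0, as the alpha subunits did.

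Among the RPT ATPases of the base, 1 of 9 rose and 5 fell, beside 26.7% of all genes in each direction. Their median was −0.51, with 1 ratio above 0 and 8 below. RPT2a measured 0.35, 0.25, 0.33 and 0.23 (0.29 ± 0.065, adjusted p = 0.0381 by limma) and was the 1 that rose. RPT1b fell by 1.03, RPT4a by 0.87, RPT1a by 0.51 and RPT4b by 0.51, each below 0 on all 4 arrays. RPT6a (AT5G19990) had the lowest ratio of the members, with −1.08, −2.21, −1.83 and −1.69, a change of −1.70 ± 0.235 (SE, n = 4, adjusted p = 0.0133 by limma). Its spot was dim: at 3 d it was above blank spots on 2 of 4 arrays in each cross, and its 3 d ratios of 0.47, −0.51, 2.02 and 0.69 had no common side. RPT3 and RPT5a, at −0.10 and −0.03, and the dim RPT6b, at −0.65 with arrays from −2.29 to 0.55, did not pass.

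Among the other subunits of base and lid, 3 of 17 tested rose and 7 fell, beside 26.7% of all genes in each direction. The median of these 17 was 0.02, with 9 ratios above 0 and 8 below, so their median shows no lean to lower. RPN7 (AT4G24820), a lid scaffold subunit, measured −1.76, −1.55, −1.69 and −1.48, all far below 0. Its change was −1.62 ± 0.082 (SE, n = 4, adjusted p = 0.00281 by limma), 3.08-fold lower. RPN11 (AT5G23540), the metalloprotease that removes ubiquitin chains as substrates enter, measured −1.22, −1.12, −1.06 and −1.12 at 6 d but 0.08, 0.06, 0.11 and 0.21 at 3 d. It was 2.19-fold lower at 6 d (−1.13 ± 0.063, adjusted p = 0.00302 by limma). The lid subunits RPN3b, RPN9b, RPN8a, RPN3a and RPN5b fell by 1.08, 1.07, 0.92, 0.45 and 0.35. Of these RPN9b spread most, with −0.71, −0.34, −2.10 and −1.13, and did not pass without the dye term (adjusted p = 0.0509). RPN10, a receptor for ubiquitin chains, measured 0.68, 0.60, 0.72 and 0.54 (0.63 ± 0.07, adjusted p = 0.00844 by limma). RPN6, a lid subunit that contacts the core, and RPN8b rose by 0.51 and 0.39. The large base scaffolds RPN1a, RPN1b, RPN2a and RPN2b lay between −0.05 and 0.03 and none passed.

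Of the other annotated genes, 3 of 12 rose and 4 fell at 6 d, near the 26.7% of all genes in each direction. Both genes of the UMP1 family, whose yeast counterpart helps assemble the core and is its first substrate, were the highest of all members. AT1G67250 measured 1.44, 1.70, 1.73 and 1.57 (1.61 ± 0.084, adjusted p = 0.00287 by limma), 3.05-fold higher, from −0.21, −0.19, −0.25 and 0.09 at 3 d. AT5G38650 measured 1.71, 1.71, 0.67 and 1.65 (1.43 ± 0.204, adjusted p = 0.0141 by limma), with replicate 3 below the rest but still above 0. CSN2, a subunit of the COP9 signalosome that carries the word in its description, rose by 0.67. AT5G57950 fell by 0.99, and the 3 genes with a PCI domain or similarity to a lid subunit, AT5G15610, AT2G19560 and AT3G02200, fell by 0.82, 0.73 and 0.43. The 2 ubiquitin C-terminal hydrolases AT5G16310 and AT1G65650, at 0.22 and −0.14, did not pass.

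**Figure D2:**
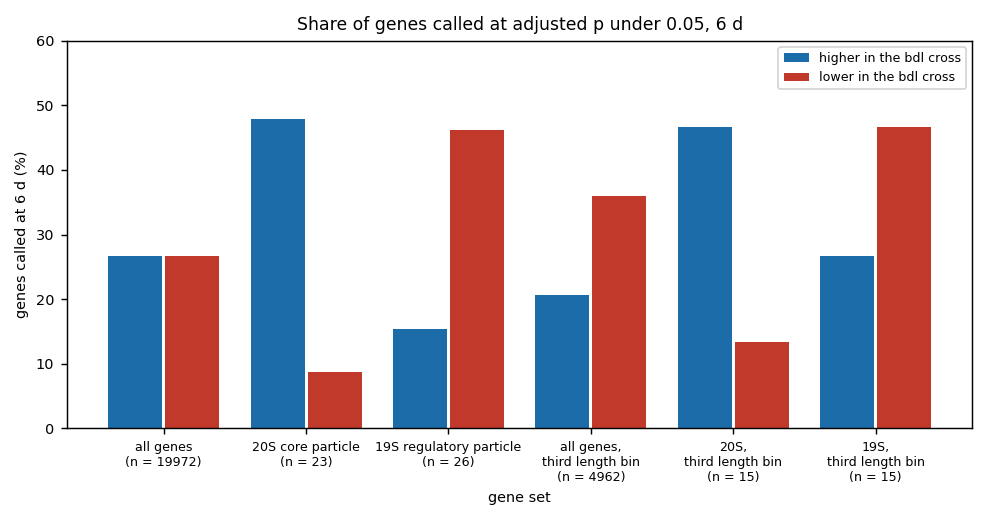
Share of genes (vertical axis, %) higher (blue) or lower (red) in the bdl cross at 6 d at an adjusted p under 0.05, for all genes, the 20S and the 19S particle, and the same sets within the third length bin (2305 to 3248 bases). The 20S bars lean to higher and the 19S bars to lower, in the whole sets (11 and 2 of 23, 4 and 12 of 26) and in the length bin (7 and 2 of 15, 4 and 7 of 15). All 4962 genes of that bin lean to lower too, with 20.7% higher and 35.99% lower. The 19S lean within the bin is thus not set apart from that of all its genes. Subunits whose description lacks the word proteasome are not included.

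Gene length moved with the ratios of all genes at 6 d and not at 3 d. Taking the span of each gene from the RefSeq table of assembly TAIR10.1, and dividing the genes into 4 equal bins, the bin of the shortest genes had a median of 0.45 at 6 d and that of the longest −0.21, and Spearman's rho over 19839 genes, which share these 4 arrays and are not replicates, was −0.25, against −0.00 at 3 d. The 20S genes are shorter than the 19S genes, with medians of 2474 and 2911 bases. Within the third bin, 2305 to 3248 bases, 7 of 15 genes of the 20S core rose and 2 fell (median 0.31), and 4 of 15 genes of the 19S particle rose and 7 fell (median −0.35), where 20.7% of all 4962 genes were higher and 35.99% lower, with a median of −0.21. The part of gene length in the ratios of the members was not tested. Markers of other seed tissues also moved at 6 d. Of 6 endosperm markers, 4 were higher and none lower (0.29 to 2.09, median 1.75). Of 6 seed coat markers, 4 were higher and 1 lower (−0.46 to 2.22, median 1.20). Embryo markers had 3 higher and 1 lower of 5 (−1.30 to 1.74, median 0.79). The 1.74 was that of WOX8, which did not pass and measured −4.54 on replicate 4. At 3 d none of 5 endosperm markers passed, 1 of 6 seed coat markers was higher and 4 of 6 embryo markers were higher. Levels at 6 d were not analysed here, the part of these tissues in the members' ratios was not tested, and fewer cells of a type cannot be told apart from less RNA per cell.

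The change in ratio from 3 d to 6 d was then tested directly, on all 8 arrays. Of 60 members tested, 20 moved up, 13 moved down and 27 did not pass, 55.0%, beside 44.6% of all 18836 genes (23.9% up and 20.7% down). The 20S genes had 11 up and 1 down of 23 and the 19S genes 6 up and 9 down of 26. The 5 largest differences were those of RPT6a (−2.37, adjusted p = 0.0096), AT1G67250 (1.75, adjusted p = 7.12e-05), RPN7 (−1.38, adjusted p = 0.00241), RPN11 (−1.24, adjusted p = 4.79e-05) and the dim RPT6b, which did not pass (−1.24, adjusted p = 0.34), all by limma. Next came AT5G38650 (1.23, adjusted p = 0.00655). PBD1 was the 1 member that passed in both directions: it was lower in the bdl cross at 3 d and higher at 6 d, with 0.28, 0.36, 0.27 and 0.29, and its ratio moved by 0.79 (adjusted p = 0.00022). The 3 d ratio of RPN7 held −0.88 on replicate 4 against −0.10 to −0.00 on the other arrays.

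**Figure D3:**
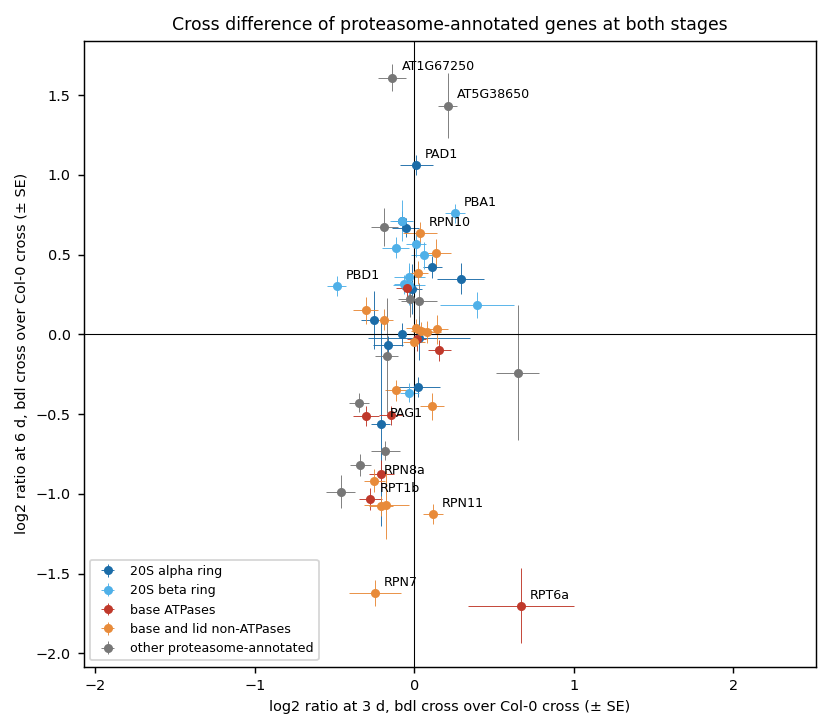
Log2 ratio, bdl cross over Col-0 cross, at 3 d (horizontal) against 6 d (vertical) for the members tested at both stages, with bars of 1 SE from limma and colours by role. The points spread more along the vertical axis than the horizontal: AT1G67250 reaches 1.61 at 6 d from −0.14 at 3 d and RPN11 −1.13 from 0.11, while PBD1 sits left of 0 at 3 d and above 0 at 6 d.

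Paralogs of 1 subunit did not always move alike. Of 20 pairs with values at 6 d, counting RPT2b and RPT5b whose descriptions lack the word, 11 had ratios of opposite sign, 7 were called in the same direction and 2 in opposite directions. Over all genes 49.3% of the ratios were above 0, and opposite signs among unrelated pairs were not counted. Several of the pairs of opposite sign held a gene near 0, such as PAF2 (−0.001), PAB2 (−0.02) and RPT5a (−0.03), whose side is uncertain. RPN8 was the widest: RPN8a measured −1.05, −0.88, −0.81 and −0.93 and RPN8b 0.33, 0.53, 0.34 and 0.35. They differed by −1.30 ± 0.113 (SD, n = 4 arrays, exact sign-flip test, two-sided, p = 0.125, the smallest that 4 arrays allow), with no overlap. PAE1, at −0.33 ± 0.125 (SD), and PAE2, at 0.67 ± 0.024 (SD), were the other pair called in opposite directions and did not overlap either. RPN9a measured 0.03, 0.15, 0.05 and 0.13 and lay above RPN9b on every array (difference 1.16 ± 0.736, SD, exact p = 0.125). That holds for its brightest probe only: another RPN9a probe had a mean of −0.99, near the −1.07 of RPN9b. The opposite signs of RPN5a and RPN5b (0.15 and −0.35) also rest on the brightest probe, since other RPN5a probes had −0.47 and −1.07. The dim pair RPT6a and RPT6b differed by −1.05 ± 0.917 (SD, exact p = 0.25) and did not separate. Of RPN12, RPN12a measured 0.07, 0.06, 0.01 and 0.00 at 6 d, and at 3 d its difference from RPN12b was −1.23 ± 1.96 (SD, exact p = 0.5). Pairs that moved together were PAD, PBB, PBC and PBD, higher, and RPT1, RPT4 and RPN3, lower. PBB is among these 7 by its brightest probes only: with probes averaged PBB1 had 0.16 and PBB2 −0.02, and neither passed. Cross-hybridisation between paralogs was not tested.

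**Figure D4:**
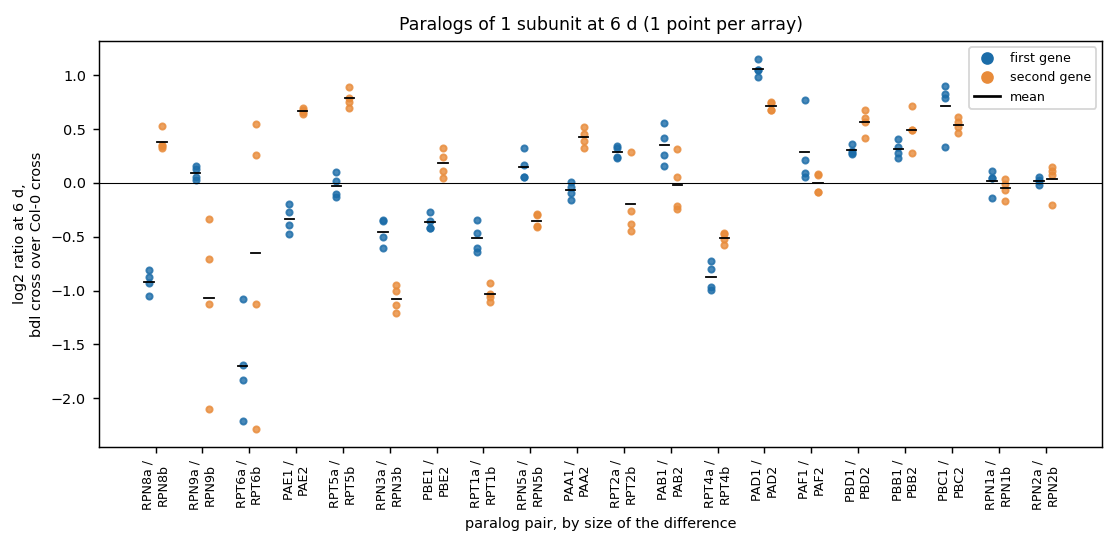
Log2 ratio, bdl cross over Col-0 cross, at 6 d (vertical axis) for 20 pairs of paralogs (horizontal axis, ordered by the size of their difference); points are arrays, black ticks means. RPN8a and RPN8b lie apart at −0.92 and 0.39 and PAE1 and PAE2 at −0.33 and 0.67, while the pairs at the right end overlap.

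For 7 members the array held more than 1 probe, and the brightest was used. For RPN5a (AT5G09900) the 3 probes had means of 0.15, −0.47 and −1.07 at 6 d, and their average was −0.46 (adjusted p = 0.0147 by limma), opposite to the brightest probe. For RPN9a the brightest probe had 0.09 and another, with values on all 4 arrays, −0.99. The stage differences of RPN5a and RPN9a, 0.46 and 0.29, became −0.51 (adjusted p = 0.0299 by limma) and −0.14 (adjusted p = 0.49) with the probes averaged. For AT3G53970, similar to the human proteasome inhibitor PI31, the brightest probe measured −0.68, 0.82, 0.18 and −1.28, and a second one 1.12, 0.94, 0.90 and 1.01. For PBB1 the other probes had 0.13 and 0.02, and for PBB2 another passing the filter had 0.02 against 0.50. Another probe of AT3G02200 had −0.06, its other two −0.43 and −0.58. The ratios of these 6 genes therefore depend on the probe. The 3 probes of AT5G15610 all lay below 0, at −0.82, −0.61 and −0.51.

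Genes that act with the proteasome were read from lists of its neighbours, on which 19 of 34 genes tested passed at 6 d, where 53.4% of all genes did, and 2 of 32 at 3 d, where 13.1% did. Of subunits whose description lacks the word, both DSS1 genes, small lid subunits, rose at 6 d, DSS1(I) with 2.00, 1.77, 2.00 and 2.04 and DSS1(V) with 1.77, 1.66, 1.84 and 1.79. RPT5b rose by 0.79, while RPN13, a ubiquitin receptor, and RPT2b measured −0.01 and −0.20 and did not pass. These 5 genes are not in the 19S counts and medians above. PA200, an alternative cap of the core, rose by 0.62 and UBP6, a proteasome-bound deubiquitinase with a dim spot, fell by 1.06. NAC53 and NAC78, transcription factors that activate proteasome genes, measured −0.02 and 0.01 at 6 d and did not pass.

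Of the COP9 signalosome, a complex related to the lid that removes NEDD8 from cullin ubiquitin ligases, 3 of 9 tested genes rose and 4 fell at 6 d with CSN2 counted. CSN8 measured 1.75, 1.36, 1.70 and 1.89 and CSN3 −1.46, −1.14, −1.41 and −1.65, the extremes of the list among genes that passed. CSN5A, the catalytic subunit, fell by 0.94 and its paralog CSN5B rose by 0.26. Of shuttle receptors and CDC48 segregases, which bring ubiquitinated proteins to the proteasome, 5 of 10 fell and none rose at 6 d, beside 26.7% of all genes in each direction. Of ubiquitin and its activating enzymes, 3 of 7 rose and none fell at 6 d, namely UBQ14 (1.31), UBQ10 (1.27) and UBQ11 (1.04), and UBQ14 was also higher at 3 d (0.49). The polyubiquitin genes are near-identical in sequence, so which of them gave the signal is uncertain. The activating enzymes UBA1 and UBA2, at −0.15 and −0.10, did not pass.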

How the data were processed

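Embryo RNA of the 2 crosses was amplified and hybridised to 2-colour arrays, per the labels' protocols. For 3 d the authors deposited 1 linear intensity per spot and cross. That background had been subtracted was inferred from low blank spots, with 95th percentiles of 24.54 to 81.15, and was not checked. For 6 d the deposited table of log2 ratios was used; its rows were named by equal 3 d ratios (24661 matched within 1e-06). The scanner, the method of background correction, the normalization and the genome build: not given in the sources used here.

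At 3 d, probes needed either channel above the 95th percentile of 1743 blank spots on at least 2 arrays; both stages needed values on at least 3 arrays. The brightest 3 d probe stood for a locus. Ratios were fitted with limma 3.58.1 (R 4.3.3) with a dye term, Benjamini-Hochberg adjusted over all genes, threshold 0.05; the stage difference used all 8 arrays of the table. Scripts were tested on simulated data. Names came from RefSeq TAIR10.1, in which all 62 members were found.

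The members and gene lists were chosen with earlier results of these data known. Genes given in full had, by rule, the highest or lowest ratio of a role group at either stage, the 5 largest stage differences, or the 4 widest paralog differences. The number of arrays limits the precision. Columns of unknown sample numbered 0. Alternatives were loess, centring, other filters and dye terms, mean over probes, a replicate block, a threshold of 0.1 and leaving out replicates. No sequence is shown, since the tables used hold none. One gene of the neighbour lists is counted but not reported here by name.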

Additional observations from a re-analysis of the deposited data

Results flagged for a closer look

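In 4 of 47 groups of 4 arrays examined, 1 array stood apart by Dixon's test at 95%, which chance gives in about 1 of 20 groups. AT1G67250 had 0.09 on replicate 4 at 3 d against −0.25 to −0.19 on the others. AT3G53970 had 1.15 on replicate 4 at 3 d against 0.44 to 0.52, and RPN7 had −0.88 there against −0.10 to −0.00. RPN8b had 0.53 on replicate 2 at 6 d against 0.33 to 0.35. So 3 of the 4 were replicate 4 of 3 d, the array with the lowest correlations.

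The ratio differed between 3 d and 6 d by the test of the difference itself for 15 of the genes given in full. It was higher at 6 d for AT1G67250 (1.75), PAD1 (1.05), PBD1 (0.79), RPN10 (0.60), PBA1 (0.51), RPN5a (0.46), RPN8b (0.36), RPT2a (0.34) and RPN9a (0.29). It was lower at 6 d for RPT6a (−2.37), RPN7 (−1.38), RPN11 (−1.24), RPN8a (−0.67), AT5G57950 (−0.53) and PBE1 (−0.33). The differences of RPN5a and RPN9a turned in sign with the mean over probes, and RPT6a has a dim spot.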

How the results depend on the processing

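The members given in full and called at a stage kept their direction under each alternative with all 4 arrays. With the mean over probes RPN5a, not called at 6 d, reversed to −0.46, and the called stage differences of RPN5a and RPN9a reversed to −0.51 and −0.14. At 3 d, 2 members were called, 1 with loess, 1 with no filter, 10 without the dye term, 12 among spots bright in each channel, 8 with the term from blank spots and 9 at an adjusted p under 0.1. Leaving out a replicate gave 0 to 6 at 3 d (6 without replicate 4 and the dye term), where with the dye term kept no gene of the array passed (4610 to 5358 at an unadjusted p under 0.05); 1 residual degree of freedom remains there. The 2 called genes of the neighbour lists at 3 d became 1 with no filter, 6 with bright spots, 4 without the dye term, 4 with that from blank spots, 6 at 0.1 and 0 to 4 with a replicate left out. At 6 d, leaving out a replicate gave 19 to 22 members against 36 with the dye term kept, whichever was left out, and 34 to 38 without it, 5 to 14 genes of the 20S core higher against 11, and 7 to 12 of the 19S particle lower against 12, the low ends with the dye term kept. With a replicate left out, the median at 3 d, −0.033, ran from −0.0606 to −0.0423, and from −0.0571 to −0.045 without the dye term; that at 6 d, 0.0204, ran from 0.035 to 0.0612, and from 0.0189 to 0.0512 without it, with 0.0413 after centring and −0.00122 with the mean over probes. Over all genes the 3 d count was 2521 and ran from 1714 with no filter to 5373 with bright spots. The cause of these shifts was not tested.

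With the replicate block, 30 members had a stage difference against 33, and that of RPN9a did not pass (adjusted p = 0.0614). After each probe's stage mean was subtracted, same-numbered arrays of the 2 stages correlated at −0.09 to −0.03 over 13899 probes. This does not settle whether a number marks a shared batch, and the labels do not say.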
